A study of Mus musculus with 14 samples.

Results

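A set of 10 genes of the contractile apparatus of skeletal muscle were followed in RNA-seq of whole mouse embryo heads. They were the thick filament genes Myh3, Myl1 and Myl4, the thin filament genes Acta1, Actc1, Tnnt1 and Tnnc2, the Z-disc genes Actn2 and Csrp3, and Ttn. Of these 10 genes, 9 were found by name among 67811 loci, and Acta1 is not analysed here. Where a name stood on several loci, which was so for Ttn alone, the locus with the highest mean was taken. The genes were chosen because their RNA had been lower in Zcchc8-/- than in Zcchc8+/+ heads of these same libraries, so their values in that contrast are given as a description, and calls counted on them there are no evidence that they differ. Of the 9 genes, 8 passed a filter of at least 0.5 FPKM (fragments per kilobase, scaled to library size) in at least 3 libraries, and Ttn did not.

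The series holds 6 libraries of Zcchc8-/- heads (KO), 3 of Zcchc8+/- heads (HET) and 5 of Zcchc8+/+ heads (WT), all taken at E12.5 and all on the C57BL/6J background. ZCCHC8 holds together the nuclear exosome targeting complex, which passes short-lived nuclear RNAs to the RNA exosome for decay. The sources used here do not give the bases of Zcchc8 that are altered. A head at this stage holds brain, facial mesenchyme, cartilage and muscle together. Nothing in the labels ties a library to an embryo of its own, so the p-values speak of the spread between these libraries, which may be technical.

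A sarcomere is the repeating contractile unit of striated muscle, in which myosin thick filaments slide along actin thin filaments that are anchored at the Z-discs. Troponin on the thin filament senses calcium and lets myosin bind, and titin spans from the Z-disc to the middle of the sarcomere. In head muscle, myogenic regulators such as Myf5, Myod1 and Myog commit progenitors and turn on sarcomere genes as the cells fuse into fibres. Embryonic skeletal fibres use developmental isoforms, including Myh3, Actc1, Myl4 and Tnnt2, and some of these are later known mainly from the heart.

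Zcchc8 RNA followed the labels, at 15.5 ± 3.91 FPKM in KO (SD, n = 6), 25.7 ± 1.64 in HET (SD, n = 3) and 39.7 ± 2.32 in WT heads (SD, n = 5). It was at 9.265, 14.35, 15.08, 15.06, 20.58 and 18.69 FPKM in KO1 to KO6, all below the lowest HET library at 23.98 FPKM. Any link of these levels to the sarcomere values was not tested. Total depth is unknown, because the files hold no read counts. Libraries KO1 and KO2 stood apart in RNA that marks regions of the head. Hand2, a regulator of lower jaw identity that is also a heart gene, was at 0.417 FPKM in KO1 and 0.233 FPKM in KO2 and between 6.31 and 12.6 FPKM in the other 12 libraries. Of 10 lower jaw patterning genes, a list chosen after Hand2 had been seen, 5 were lower in both KO1 and KO2 than in each of the other 12. Hand2 itself is among these 5. The share of all loci for which this held was not counted, so nothing is read from that count. The summed FPKM of 22 Hox genes of the neck and trunk was 7.34 in KO1 and 1.76 in KO2, and between 22.1 and 89.2 in the other 4 KO libraries, 14.8 and 57.6 in HET and 25.1 and 61.2 in WT libraries. Results are therefore given with and without KO1 and KO2, a choice made after seeing the data. The part that tissue makeup plays in the sarcomere values was not tested.

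The labelled tissue held skeletal muscle RNA. Myog, which drives muscle differentiation, was at 10.6 ± 5.82 FPKM in KO (SD, n = 6), 16.1 ± 2.15 in HET (SD, n = 3) and 16.4 ± 4.32 in WT heads (SD, n = 5). Of 13 heart muscle markers, 6 were under 0.5 FPKM in every library, namely Nppa, Nppb, Mybpc3, Gata4, Tbx5 and Pln. In contrast, 5 of the 13 passed the filter, among them Hand2 and Ryr2, at 9.23 and 0.945 FPKM in WT heads, so RNA of heart markers was not absent. Myh6, the alpha heavy chain of the heart, was at most 0.596 FPKM in KO and 0.278 FPKM in WT libraries, and Myl7, an atrial light chain, at most 0.681 FPKM in KO and 0.163 FPKM in WT libraries. In bulk heads, fewer muscle cells and less RNA per muscle cell cannot be told apart.

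The thick filament genes were lower in most KO libraries, with KO2 lowest and KO5 inside the WT range. Myh3 encodes embryonic myosin heavy chain, the motor of the first fibres, and its locus lies on chromosome 11 from 67069795 to 67102291 (mm10). It was at 2.90, 1.84, 6.38, 4.63, 11.8 and 5.65 FPKM in KO1 to KO6, at 11.3, 9.35 and 8.52 FPKM in HET3 to HET5 and at 7.29, 12.9, 7.51, 14.02 and 9.10 FPKM in WT1 to WT5. In 5 of 6 KO libraries it was below the lowest WT library, and only KO5 overlapped the WT libraries. The mean was 5.52 ± 3.49 FPKM in KO and 10.2 ± 3.12 in WT heads (SD, n = 6 and 5), or 54.3% of the WT mean, and the difference of mean log2(FPKM + 0.1) values was -1.05 (SE 0.38).

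Myl1 encodes the alkali light chains of fast skeletal myosin (chromosome 1, 66924295 to 66945452). Its level was 5.44, 2.97, 15.4, 9.83, 20.8 and 12.2 FPKM in KO1 to KO6, 23.1, 19.5 and 17.7 FPKM in HET3 to HET5 and 15.9, 26.7, 14.4, 27.3 and 18.5 FPKM in WT1 to WT5. KO3 and KO5 lay within the WT range, and the other 4 KO libraries below it. The KO mean was 11.1 ± 6.53 FPKM, against 20.5 ± 6.07 FPKM in WT heads, with a log2 difference of -1.09 (SE 0.43).

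Myl4 encodes the embryonic and atrial alkali light chain (chromosome 11, 104502745 to 104595753), and its range in the files also covers Cdc27 in the GENCODE M21 annotation. It was at 5.24, 4.52, 11.7, 8.09, 17.3 and 11.1 FPKM in KO1 to KO6, at 24.9, 19.6 and 16.6 FPKM in HET3 to HET5 and at 15.6, 26.7, 14.4, 28.4 and 15.5 FPKM in WT1 to WT5. All KO libraries except KO5 were below every WT library. The means were 9.66 ± 4.77 FPKM in KO and 20.1 ± 6.85 FPKM in WT heads, and the log2 difference was -1.14 (SE 0.33).

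**Figure D1:**
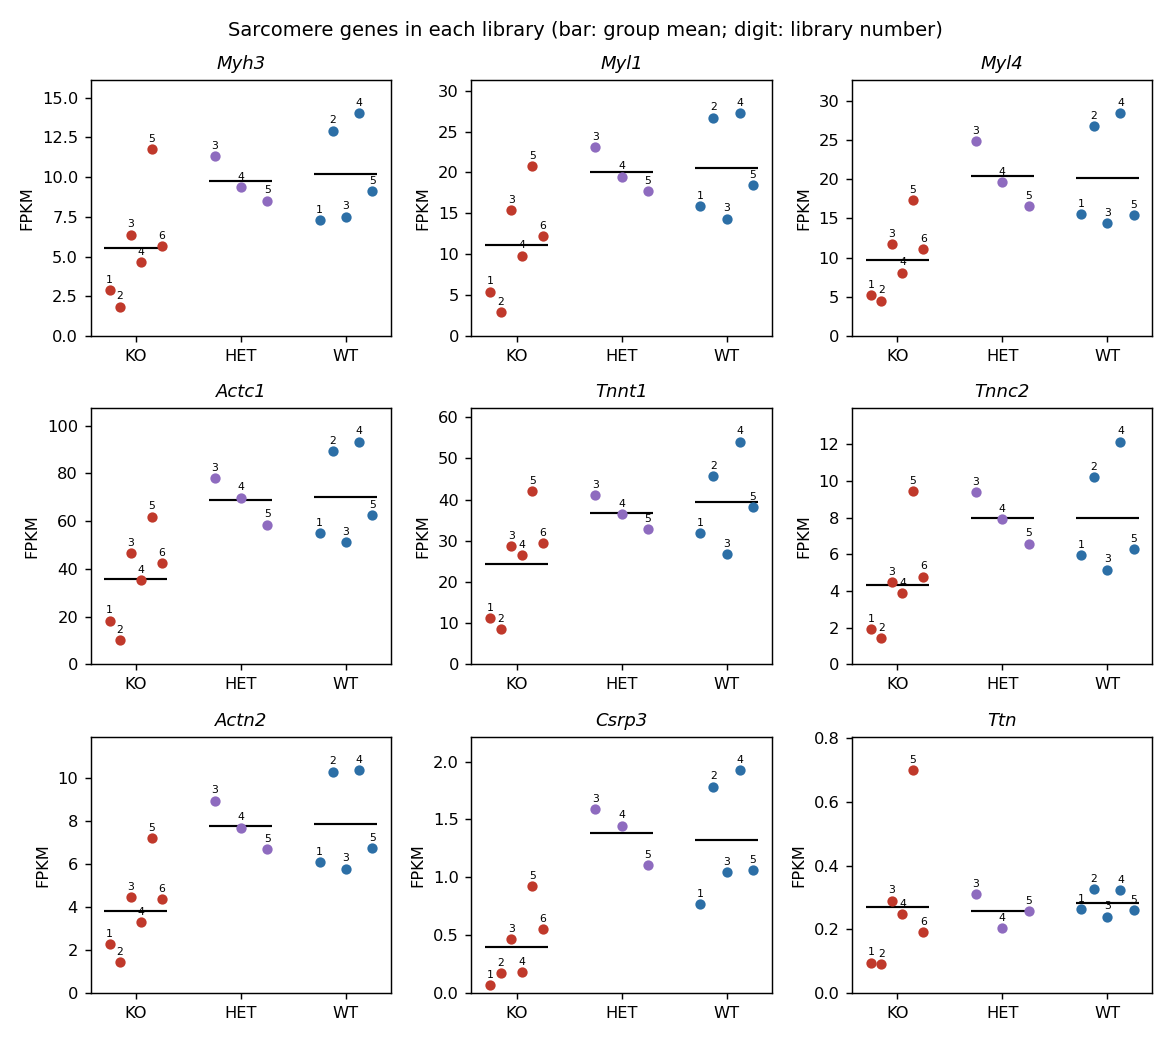
FPKM of the 9 sarcomere genes with a locus in each library, by genotype from left to right KO (n = 6), HET (n = 3) and WT (n = 5). Each point is 1 library with its number beside it and each bar is a group mean. For every gene but Csrp3, KO2 is the lowest library, and KO5 is the highest KO library for all 9.

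In the thin filament genes KO2 was again the lowest and KO5 the highest of the KO libraries. Actc1, the cardiac alpha-actin that is the main sarcomeric actin of embryonic skeletal muscle, was the most abundant of the set per length (chromosome 2, 114009601 to 114068324, a range that also covers Gjd2). It was at 18.4, 10.3, 46.6, 35.4, 62.0 and 42.4 FPKM in KO1 to KO6, at 78.0, 69.9 and 58.6 FPKM in HET3 to HET5 and at 55.1, 89.3, 51.2, 93.4 and 62.5 FPKM in WT1 to WT5. KO5 alone among the KO libraries reached the WT range. The mean was 35.8 ± 19.0 FPKM in KO and 70.3 ± 19.7 FPKM in WT heads, with a log2 difference of -1.15 (SE 0.41).

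Tnnt1 encodes slow skeletal troponin T, which ties the troponin complex to tropomyosin (chromosome 7, 4504570 to 4516382). Its level was 11.3, 8.54, 28.7, 26.6, 42.1 and 29.4 FPKM in KO1 to KO6, 41.0, 36.4 and 32.8 FPKM in HET3 to HET5 and 31.9, 45.6, 26.7, 54.1 and 38.1 FPKM in WT1 to WT5. KO3, KO5 and KO6 overlapped the WT range, and KO4 was just below its lowest library, WT3. KO heads averaged 24.4 ± 12.54 FPKM and WT heads 39.3 ± 10.9 FPKM. The log2 difference of -0.84 (SE 0.38) was the smallest of the 8 genes tested with 0.1 FPKM added.

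Tnnc2 encodes fast skeletal troponin C, the calcium sensor of fast fibres (chromosome 2, 164769898 to 164779967, a range that also covers Ube2c). It was at 1.94, 1.43, 4.47, 3.87, 9.44 and 4.79 FPKM in KO1 to KO6, at 9.39, 7.91 and 6.59 FPKM in HET3 to HET5 and at 5.95, 10.2, 5.16, 12.1 and 6.30 FPKM in WT1 to WT5. KO5 exceeded 3 of the 5 WT libraries, and the other 5 KO libraries were below all of them. The means were 4.32 ± 2.85 FPKM in KO and 7.95 ± 3.05 FPKM in WT heads, with a log2 difference of -1.03 (SE 0.41).

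At the Z-disc, Actn2 encodes the alpha-actinin that crosslinks thin filaments there (chromosome 13, 12269426 to 12340760). Its level was 2.26, 1.42, 4.43, 3.29, 7.19 and 4.37 FPKM in KO1 to KO6, 8.94, 7.68 and 6.70 FPKM in HET3 to HET5 and 6.08, 10.3, 5.77, 10.4 and 6.72 FPKM in WT1 to WT5. KO5 was the single KO library inside the WT range. KO heads averaged 3.83 ± 2.03 FPKM and WT heads 7.84 ± 2.28 FPKM, a log2 difference of -1.14 (SE 0.33).

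Csrp3, the muscle LIM protein of the Z-disc, had the largest log2 difference of the set (chromosome 7, 48830398 to 48864011). It was at 0.0704, 0.173, 0.464, 0.178, 0.923 and 0.553 FPKM in KO1 to KO6, at 1.59, 1.45 and 1.10 FPKM in HET3 to HET5 and at 0.770, 1.78, 1.05, 1.93 and 1.07 FPKM in WT1 to WT5. All 6 KO libraries were below every HET library, and KO5 lay above WT1 alone. The KO mean of 0.394 ± 0.319 FPKM was 29.9% of the WT mean of 1.32 ± 0.507 FPKM, and the log2 difference was -1.71 (SE 0.40). As levels were close to the added 0.1 FPKM, that difference depended on the added constant and was -0.74 with 1 FPKM added.

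Ttn, which encodes titin, had a KO mean near the WT mean (chromosome 2, 76703980 to 76982547, with the antisense gene Gm13938 in its range). It was at 0.0951, 0.0895, 0.290, 0.247, 0.700 and 0.191 FPKM in KO1 to KO6, at 0.311, 0.204 and 0.257 FPKM in HET3 to HET5 and at 0.264, 0.325, 0.240, 0.323 and 0.259 FPKM in WT1 to WT5. KO1, KO2 and KO6 were below the lowest WT library, KO3 and KO4 within the WT range, and KO5 above the highest WT library. KO2 was thus again the lowest and KO5 the highest KO library, though all levels were low, at most 0.700 FPKM. The KO mean of 0.269 ± 0.226 FPKM was 95.3% of the WT mean of 0.282 ± 0.0394 FPKM. The other locus that carries the name was at most 0.188 FPKM in any library.

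Across the 8 genes that passed the filter, log2 differences of KO from WT were all below 0, with a median of -1.11, beside a median of -0.00 over all 18217 loci tested. At an adjusted p under 0.05 (limma-trend, Benjamini-Hochberg over all loci), 3 of the 8 were lower, namely Myl4, Actn2 and Csrp3, beside 5.61% of all loci lower, 19.0% higher and 24.6% either way. All 8 had an unadjusted p under 0.05, beside 34.5% of all loci. In none of the 8 was every KO library below every WT library, which held for 1.99% of all loci. As the genes were chosen from this contrast, nothing is read from these counts. The split of higher and lower calls over all loci depended on scaling, since the share of calls that were higher was 77.2% as deposited and 73.1% once medians were equal. Quantile normalization gave 38.1%, and the authors' matrix 96.3%. That matrix moved the median of all loci by 0.20 on the log2 scale, and all 8 genes stayed lower in KO under each scaling.

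Without KO1 and KO2, the median log2 difference of the 8 genes was -0.56, again as a description. The differences of single genes ran from -0.29 (SE 0.20) for Tnnt1 to -1.24 (SE 0.35) for Csrp3. Mean Actc1 was then 46.6 ± 11.2 FPKM in KO (SD, n = 4), or 66.3% of the WT mean, and Tnnt1 was 31.7 ± 7.05 FPKM, or 80.7%. Mean Ttn was 0.357 ± 0.232 FPKM in those 4 libraries, or 126.5% of the WT mean. Without KO5 instead, the median of the 8 genes was -1.33.

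The KO libraries ranged from near the WT mean to far below it. The median over the 8 genes of the log2 difference from their WT means was -1.85, -2.33, -0.66, -1.04, -0.01 and -0.74 in KO1 to KO6. It was 0.23, 0.02 and -0.19 in HET3 to HET5, and -0.32, 0.43, -0.41, 0.51 and -0.15 in WT1 to WT5. On the linear scale these medians put KO1 at 27.7%, KO2 at 19.9% and KO5 at 99.7% of the WT level. WT2 and WT4 were above the WT mean for each of the 8 genes, and WT1 and WT3 below it. Over all tested loci the corresponding library medians lay between -0.02 and 0.04.

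**Figure D2:**
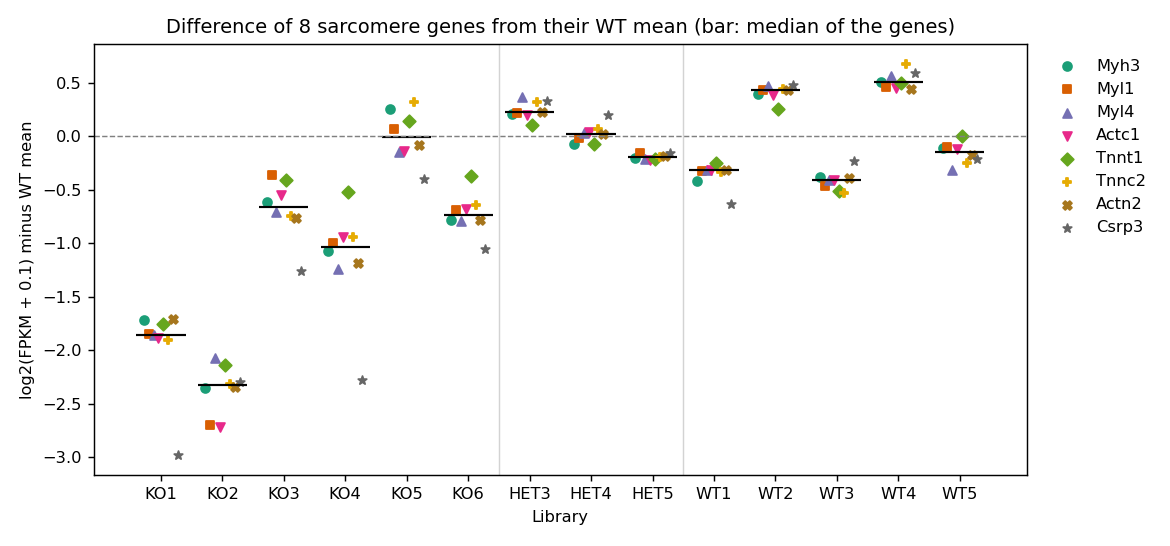
Difference of log2(FPKM + 0.1) from the WT mean for 8 sarcomere genes in each library, KO on the left, then HET and WT. Symbols are genes and bars are the median of the 8 genes, which runs from -2.33 in KO2 to -0.01 in KO5 among the KO libraries.

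The SD of log2 values across libraries had a median over the 8 genes of 0.93 in KO, 0.21 in HET and 0.43 in WT, against 0.19, 0.09 and 0.13 over all tested loci in the same order. For all 8 genes the SD was larger in KO than in WT, as it was for 74.98% of all tested loci. Among 12359 loci whose mean FPKM lay within the range of these genes, between 1.80% and 2.95% had a larger SD in KO than any given one of the 8, and between 3.09% and 5.31% a larger SD in WT. The highest KO library exceeded the lowest by 3.84 times for Myl4, 7.01 times for Myl1 and 13.1 times for Csrp3, while the highest WT library exceeded the lowest by 1.79 times for Actn2 and at most 2.50 times, for Csrp3.

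No difference between HET and WT heads was detected for these genes. The HET libraries did not take part in choosing the genes, although the WT libraries they are compared with did. None of the 8 genes differed from WT by limma-trend, with every adjusted p at 1, and 0 had an unadjusted p under 0.05, beside 0.00549% of all loci called and 1.94% at an unadjusted p under 0.05. Log2 differences ran from -0.06 for Tnnt1 to 0.12 for Csrp3, with a median of 0.02 and SEs between 0.40 and 0.52. These SEs and p-values use 1 spread per gene over all 14 libraries, so they carry the wider KO spread. The median SD of log2 values was 0.93 in KO, against 0.21 in HET and 0.43 in WT. Every HET library lay inside the WT range for each of the 8 genes. Errors of that size leave moderate differences either way undetected, so these values do not show equal levels.

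Values of KO set against HET, which share the KO libraries with the contrast above, are given beside them as a description. Myh3 was at 5.52 ± 3.49 FPKM in KO and 9.74 ± 1.45 FPKM in HET heads, a log2 difference of -1.03 (SE 0.44). Actc1 was at 35.8 ± 19.0 FPKM in KO and 68.9 ± 9.75 FPKM in HET heads, a difference of -1.16 (SE 0.48). The median over the 8 genes was -1.13, and 3 were called lower, again Myl4, Actn2 and Csrp3, beside 4.36% of all loci. In 7 of the 8 genes, 5 of 6 KO libraries were below the lowest HET library, and KO5 was the exception.

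Promoter windows are shown for Myh3, Actc1 and Csrp3. They stand for the motor, the actin and the gene with the largest log2 difference with 0.1 FPKM added. The windows come from RefSeq on GRCm38.p6 and run from 250 bases before to 50 bases after the annotated start, written 5′ to 3′ on the strand of the gene. Myh3 is on the plus strand at chr11:67078050-67078349, Actc1 on the minus strand at chr2:114052826-114053125 and Csrp3 on the minus strand at chr7:48848002-48848301, the farthest upstream of 2 windows. Capitals mark matches on either strand to the E-box CANNTG, the letters bound by myogenic factors such as MYOD1, to TATAAA and to the CArG box bound by serum response factor, and none of the marked matches overlap.
Myh3: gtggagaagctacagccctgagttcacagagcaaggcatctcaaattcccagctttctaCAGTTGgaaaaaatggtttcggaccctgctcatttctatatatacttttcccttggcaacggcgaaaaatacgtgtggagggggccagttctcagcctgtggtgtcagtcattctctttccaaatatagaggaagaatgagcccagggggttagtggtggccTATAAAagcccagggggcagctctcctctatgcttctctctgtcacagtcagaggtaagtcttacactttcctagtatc
Actc1: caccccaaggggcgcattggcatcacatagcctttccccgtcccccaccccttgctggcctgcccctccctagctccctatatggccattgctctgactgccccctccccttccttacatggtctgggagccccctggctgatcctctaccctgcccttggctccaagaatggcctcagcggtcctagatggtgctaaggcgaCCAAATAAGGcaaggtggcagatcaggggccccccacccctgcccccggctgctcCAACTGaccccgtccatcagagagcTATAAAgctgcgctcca
Csrp3: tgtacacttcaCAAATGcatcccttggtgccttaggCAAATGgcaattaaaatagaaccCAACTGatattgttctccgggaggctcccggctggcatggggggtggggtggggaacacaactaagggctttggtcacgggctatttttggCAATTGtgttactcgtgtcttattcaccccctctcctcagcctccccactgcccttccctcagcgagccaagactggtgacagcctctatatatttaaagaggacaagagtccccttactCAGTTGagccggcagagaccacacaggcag
All 9 genes had a window. An E-box was in 8 of 9, all but Myl4, and in 72.3% of all 32851 windows. Csrp3 had 5 E-boxes, starting 239, 214, 191 and 100 bases before the start and at base 21 after it. TATAAA was in 4 of 9 windows (Myh3, Myl1, Actc1 and Tnnt1), beside 13.6% of all windows. It began 29 bases before the start in Myh3 and 30 before it in Tnnt1. In Myl1 it lay on the opposite strand, 95 bases before the start, and in Actc1 at base 34 after it. A CArG box was in the Actc1 window alone, from 47 bases before the start, beside 1.63% of all windows, and a MEF2 site in the Ttn window alone, beside 3.19%. These matches describe letters in the windows and no binding was measured.

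Some other sarcomere genes were called lower in KO heads as well. None was called higher in the values as deposited, while 3 were in the authors' matrix. From a list of 61, 44 were tested, of which 11 fell and 0 rose in KO against WT by limma-trend with adjustment over all loci, beside 5.61% of all loci lower, and 27 had an unadjusted p under 0.05, beside 34.5% of all loci. The list's median log2 difference was -0.50. This list and those below were chosen with earlier results of these data known. Some of its genes also varied across libraries much like the 8 genes, which were chosen from this contrast. Its calls are therefore a description and no independent evidence. Mylpf, the regulatory light chain of fast fibres, fell to 20.5 ± 10.6 FPKM in KO heads, against 43.1 ± 14.4 in WT heads (log2 -1.18, adjusted p = 0.0292, limma-trend). Cryab, a small heat shock protein that binds desmin and actin filaments, fell to 5.498 ± 0.948 FPKM, against 7.88 ± 1.09 in WT heads (-0.52, adjusted p = 0.00348, limma-trend). Mybpc1, the slow myosin-binding protein C, was at 2.36 ± 0.898 FPKM in KO and 3.94 ± 0.681 FPKM in WT heads (-0.78). The other 8 were Myh8, Tnnt2, Tnni1, Tpm1, Myom2, Ldb3, Myoz2 and Fhl1. Without KO1 and KO2, 3 of the 44 fell, namely Cryab, Fhl1 and Tpm1, a share near the 5.81% of all loci lower in that fit, and the median was -0.28. Among KO libraries, Fhl1 was highest in KO2, at 36.1 FPKM, and Tpm1 in KO1, at 221.8 FPKM, unlike the sarcomere genes above. Cryab was highest in KO5, as they were, but it was lowest in KO4, at 4.61 FPKM. It was at 5.30 FPKM in KO1 and 4.96 FPKM in KO2, so those libraries did not stand apart for it as they did for the 8 genes. With 1 library left out, 28 fell without KO5 and 2 fell without WT4. In HET against WT, 0 of the 44 passed and 0 had an unadjusted p under 0.05.

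Genes that couple excitation to contraction also had members that fell. Of 21 tested, 4 fell and 0 rose, beside 5.61% of all loci lower and 19.0% higher, with a median of -0.29. Srl, which encodes sarcalumenin of the sarcoplasmic reticulum, fell to 11.7 ± 0.763 FPKM in KO heads, against 15.5 ± 0.866 in WT heads (log2 -0.40, adjusted p = 7.5e-05, limma-trend), and its KO libraries, at most 12.9 FPKM, did not overlap the WT libraries, at least 14.5 FPKM, which holds for 1.99% of all loci in that direction. Sln, the small inhibitor of the calcium pump, fell to 0.778 ± 0.436 FPKM, against 1.67 ± 0.593 in WT heads (-1.09), and Cacng1 and Casq2 fell too. Without KO1 and KO2, Cacng1 and Srl were the 2 that fell, beside 5.81% of all loci. Srl did not follow the sarcomere genes across libraries. It was at 11.2 FPKM in KO5, highest among KO libraries in KO4, and lowest among WT libraries in WT4.

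Of 9 neuromuscular junction genes tested, 2 fell and 0 rose, beside 5.61% of all loci lower, with a median of -0.64. Chrnb1, a subunit of the muscle acetylcholine receptor, fell to 1.51 ± 0.679 FPKM in KO heads, against 2.41 ± 0.267 in WT heads (log2 -0.74, adjusted p = 0.0332, limma-trend). Dok7, an adaptor of the receptor kinase MuSK, shares its locus with Hgfac and fell by 0.64 on the log2 scale. Without KO1 and KO2 both calls were lost, as 0 of the 9 passed by limma-trend and 3 had an unadjusted p under 0.05, with a median of -0.22. Among 9 muscle energy genes, 2 fell, the muscle glycogen phosphorylase Pygm (-0.50) and Art1 (-0.77), and 0 rose, beside the same 5.61%, with a median of -0.41, while without KO1 and KO2 Cox7a1 was the 1 that fell.

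Myogenic regulators, most of which act before sarcomere genes, had few calls. The list also holds Tmem8c, a gene of muscle cell fusion. Of 16 tested, 1 fell and 1 rose in KO against WT, beside 5.61% of all loci lower and 19.0% higher, and 6 had an unadjusted p under 0.05, beside 34.5%. The median was -0.08. Mef2c, a cofactor of the myogenic factors, fell to 7.66 ± 1.68 FPKM in KO heads, against 9.87 ± 1.46 in WT heads (log2 -0.37, adjusted p = 0.0437, limma-trend). Pax3, which marks muscle progenitors and also neural crest and dorsal neural tube, rose to 12.0 ± 0.741 FPKM, against 10.6 ± 0.498 in WT heads (0.17, adjusted p = 0.0402, limma-trend). Myf5, the earliest of the myogenic factors, was at 0.955 ± 0.472 FPKM in KO and 0.806 ± 0.307 FPKM in WT heads, and Pax7, a progenitor marker, at 5.12 ± 0.580 FPKM in KO and 4.44 ± 0.236 FPKM in WT heads. Myod1 was at 5.07 ± 2.77 FPKM in KO and 6.98 ± 1.45 FPKM in WT heads (-0.67, adjusted p = 0.278, limma-trend) and Myog had a difference of -0.82 (adjusted p = 0.182, limma-trend), so neither passed. Tmem8c had the largest difference of the list, -1.05, and did not pass either (adjusted p = 0.0842, limma-trend). The list's median pools these genes with progenitor markers such as Pax3 and Pax7, so it does not describe each of them. Without KO1 and KO2 neither Mef2c nor Pax3 passed, and the list's median was 0.06.

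**Figure D3:**
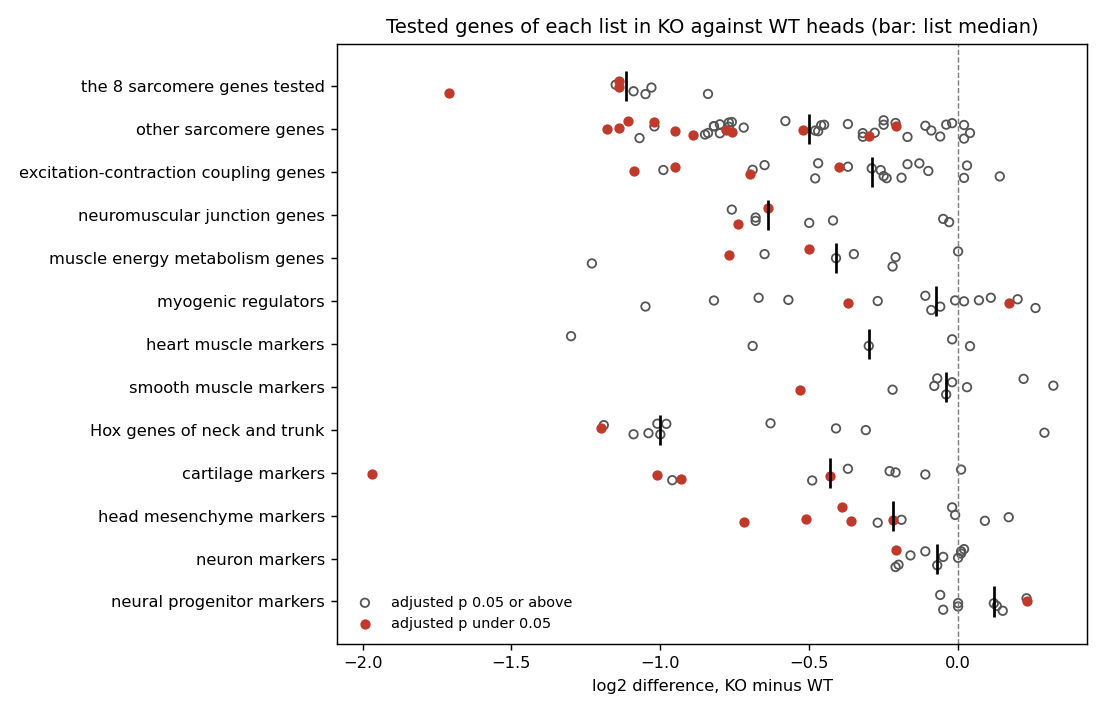
Log2 differences of KO from WT for the tested genes of each list, with the 8 sarcomere genes in the top row. Each point is 1 gene, filled where the adjusted p is under 0.05, and each bar is the median of a list, which is -1.11 for the 8 genes, -0.50 for other sarcomere genes and -0.08 for myogenic regulators.

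Heart, smooth muscle and Hox markers had few calls, beside 5.61% of all loci lower and 19.0% higher. Of 5 heart muscle markers tested, 0 were called in either direction by limma-trend and 0 had an unadjusted p under 0.05. Their median was -0.30, and it turned to 0.29 without KO1 and KO2, where again 0 were called and 0 had an unadjusted p under 0.05. The list's summed FPKM was 3.53 in KO1 and 3.44 in KO2, between 15.3 and 19.6 in the other KO libraries and between 11.6 and 17.9 in WT libraries, and Hand2 made up much of it. Of 9 smooth muscle markers, 1 fell, Acta2 (log2 -0.53), at 36.3 ± 4.28 FPKM in KO and 52.8 ± 9.33 FPKM in WT heads, while 0 rose and the median was -0.04. Among 11 neck and trunk Hox genes tested, Hoxd8 fell and 0 rose, with a median of -1.0, or 0.36 without KO1 and KO2.

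Some cartilage and mesenchyme markers fell. Of 11 cartilage markers, 4 fell and 0 rose, beside 5.61% of all loci lower, with a median of -0.43. Matn4, a cartilage matrix protein, fell to 8.78 ± 3.00 FPKM in KO heads, against 17.6 ± 4.87 in WT heads (log2 -1.01, adjusted p = 0.00162, limma-trend), and Col9a3, Matn1 and Hapln1 fell too, with 3 of the 11 falling without KO1 and KO2, beside 5.81% of all loci. Of 11 head mesenchyme markers, 5 fell and 0 rose, with a median of -0.22, among them the collagen gene Col1a2 (-0.39) and the matrix gene Dcn (-0.72). Without KO1 and KO2, 4 mesenchyme markers were called, with 3 lower and 1, Msx1, higher. Of 11 neuron markers only Gap43 fell (-0.21) and 0 rose, near the share of all loci, with a median of -0.07, while without KO1 and KO2 3 fell, Gap43, Stmn2 and Syt1, with a median of -0.12. Of 9 neural progenitor markers Sox2, on a locus shared with Sox2ot, rose (0.23) and 0 fell, beside 19.0% of all loci higher, with a median of 0.12. That call was lost without KO1 and KO2, where 0 of the 9 passed by limma-trend and 1 had an unadjusted p under 0.05. The part of these markers in the sarcomere values was not tested.

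In the other 4 KO libraries, Hand2 lay within or above the WT range of 6.31 to 10.9 FPKM. KO4, with a sarcomere median of -1.04, had 11.3 FPKM of Hand2 and a Hox sum of 55.8 FPKM, both above the WT median. KO3, with a sarcomere median of -0.66, had 9.05 FPKM of Hand2 and a Hox sum of 22.1 FPKM, the lowest of those 4 and below the lowest WT sum of 25.1 FPKM. KO5, whose sarcomere genes were near the WT mean, had the highest Hand2 and the highest Hox sum of all libraries, 12.6 and 89.2 FPKM. Within WT, WT4 had the highest summed sarcomere FPKM, 241.5, with a Hox sum of 31.3 FPKM. The summed FPKM of the cartilage markers, like the sarcomere sum, was highest in WT4, at 434.9, and lowest in KO2, at 233.1. Among KO libraries it was highest in KO5, at 387.0, while KO3, at 234.2, was nearly as low as KO2. Any link of these sums to the sarcomere values was not tested.

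**Figure D4:**
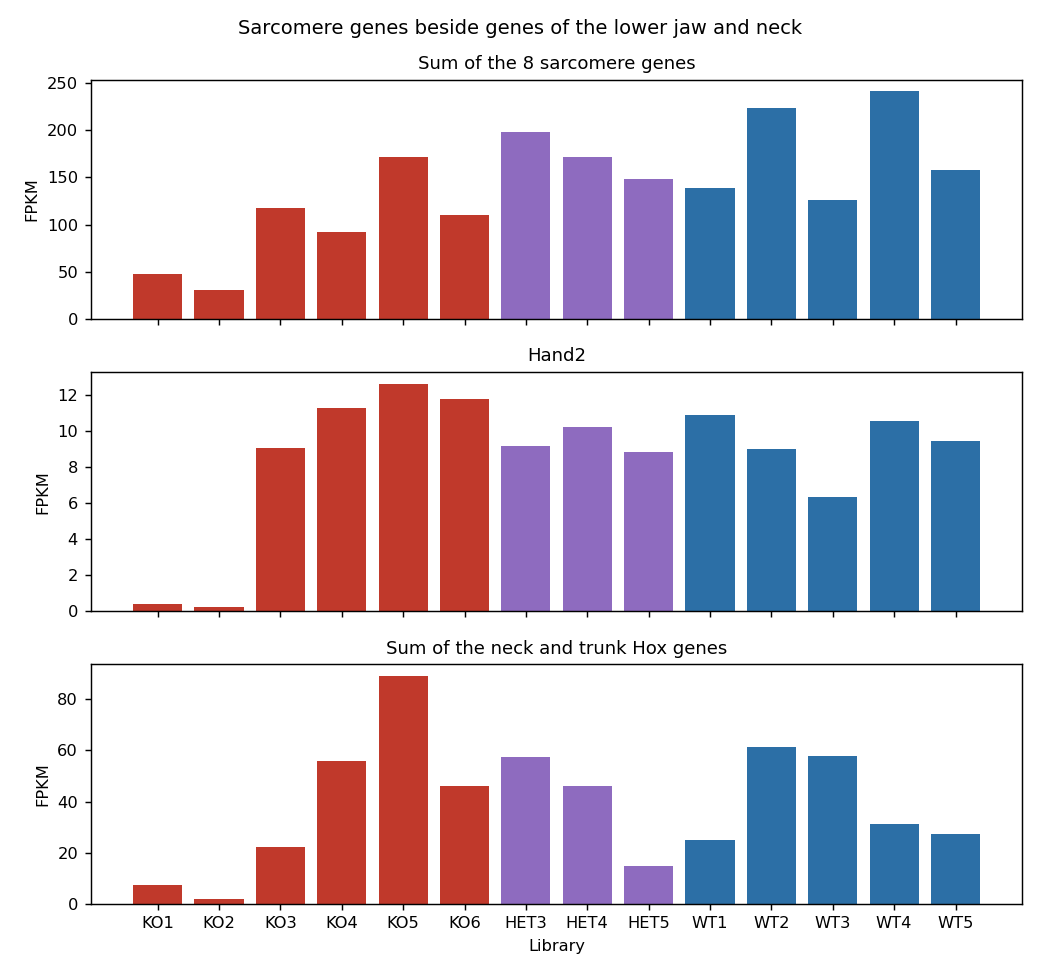
Summed FPKM of the 8 sarcomere genes (top), FPKM of Hand2 (middle) and summed FPKM of 22 neck and trunk Hox genes (bottom) in each library, KO on the left, then HET and WT. Bars start at 0. KO1 and KO2 are lowest in all 3 panels. KO3, KO4 and KO6, at 118.1, 91.9 and 110.5 FPKM in the top panel, are below every WT library there but not in the middle panel.

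The genes whose levels varied most like the set across libraries were further muscle genes. Likeness was the Pearson correlation over all 14 libraries of deviations from genotype means with the mean deviation of the 8 genes, among 13400 named loci with a mean of at least 1 FPKM, and it is a description, since all genes share the same libraries and depths. Tnni1, slow skeletal troponin I, stood first (r = 0.991, Spearman rho = 0.991, r = 0.984 without KO2 and KO5), followed by the slow troponin C gene Tnnc1 (r = 0.989), Mylpf (r = 0.988) and the cardiac troponin T gene Tnnt2 (r = 0.988). Next came Tmem8c, which encodes the fusion protein myomaker (r = 0.976), and Hfe2, which encodes hemojuvelin, a protein of skeletal muscle and liver (r = 0.971). A value of at least 0.9 was reached by 48 loci, of which 16 were among the 32 other sarcomere genes ranked. Among the 8 genes themselves, each set against that mean of which it is a part, r ran from 0.864 for Csrp3 to 0.992 for Actn2. Tmem8c was at 2.09 ± 1.2 FPKM in KO and 3.93 ± 1.42 FPKM in WT heads, and Hfe2 at 1.17 ± 0.667 FPKM in KO and 2.02 ± 0.457 FPKM in WT heads, and neither difference passed the threshold.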

How the data were processed

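Polyadenylated RNA from whole E12.5 heads, kept in RNAlater, was sequenced from stranded TruSeq mRNA libraries, per the labels' protocols. Per the submitters' processing notes, the tools were Cuffdiff, TopHat2 2.1.0, Partek, FastQC 0.10.0 and bcl2fastq, with build mm10 and no role for each. The sources used here give neither gene models nor strand setting, so overlapping and antisense genes within a locus cannot be told apart. The authors deposited FPKM values for 67811 loci in 1 table per library, and a matrix of log2 FPKM values that had been quantile normalized and is blank where FPKM is 0. FPKM is scaled per library and per length, without read counts, so precision per value cannot be given beyond the spread between libraries.

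Values were taken as log2(FPKM + 0.1), which shrinks differences of low genes. Loci with at least 0.5 FPKM in at least 3 libraries, 18217 in all, were fitted with limma-trend (limma 3.58.1, R 4.3.3, robust) over all 14 libraries with 1 mean per genotype, and p-values were adjusted by Benjamini-Hochberg over all of them. The fit was tested on simulated data. Tables and figures were made with Python 3.11.15, pandas 2.3.3, numpy 2.4.6 and matplotlib 3.10.9. Coordinates are those of the files, counted from 1.

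The sarcomere genes and the 12 lists of 217 genes were chosen with earlier results of these data known. Named genes are the sarcomere genes, Zcchc8, in each list up to 4 called genes with the smallest p (or 2 where none was called), and the 6 loci most like the set. Other genes were named after their values were seen. Alternatives were pseudocounts of 0.5 and 1, no filter, a stricter filter (1 FPKM in 5 libraries), other scalings, the authors' matrix, a replicate block, fits of 2 groups alone and leaving out each library. Leaving out KO1 and KO2 together was chosen after seeing the data. Acta1 and a few list genes, such as Cdh15 and Tubb3, are not analysed here, and some list genes are not reported here.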

Additional observations from a re-analysis of the deposited data

Results flagged for a closer look

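In 3 of 88 groups of 5 or 6 libraries, the highest library stood far from the others, by a gap that exceeds the critical share of the group's range, and chance alone gives about 1 such group in 20. All 3 were KO5. Its Ttn level was 0.700 FPKM, against 0.290 FPKM in KO3, the next highest KO library. Its level of the cartilage matrix genes was also apart, with 14.6 FPKM of Matn4 and 2.19 FPKM of Matn1. KO5 was also the highest KO library for each of the 8 sarcomere genes that passed the filter, where no such gap was met.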

How the results depend on the processing

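Every one of the 8 genes kept its direction in KO against WT under all 24 alternatives. In KO against WT, the count of lower loci, 1022, was 3801 after quantile normalization, 269 in the authors' matrix, 645 with the replicate block and 675 to 1247 with 1 library left out, and that of higher loci, 3463, was 1844 with the stricter filter and 6969 in the authors' matrix. Of the 8 genes, chosen from this contrast, 3 were called lower, but 1 in the authors' matrix, 1 with the replicate block and 1 to 7 with 1 library left out. Other sarcomere genes called lower, 11, numbered 2 with no filter, 7 with the stricter filter, 28 after quantile normalization, 4 with the replicate block, 7 in a fit of the compared groups alone, 3 without KO1 and KO2 and 2 to 28 with 1 library left out, and 3 were higher in the authors' matrix. In HET against WT, 0 loci were lower, but 1 in the authors' matrix, in the compared groups alone and without KO1 and KO2, and 0 to 1 with 1 library left out. The 1 higher locus became 0 with pseudocounts of 0.5 or 1, the stricter filter, the authors' matrix or the replicate block, 2 with no filter, quantile normalization or the compared groups alone, and 0 to 2 with 1 library left out. The median of the 8 genes in HET against WT was 0.02, and -0.29 with the replicate block. In KO against HET, 794 lower loci became 3256 after quantile normalization, 217 in the authors' matrix, 409 with the replicate block, 451 in the compared groups alone and 267 to 932 with 1 library left out, and 3265 higher loci became 1772 with the stricter filter and 2092 after quantile normalization. The causes were not tested. Replicate numbers were not used as pairs in the main fit. Correlations of deviations between same-numbered libraries ran from -0.114 to 0.007 for KO and WT. They ran from 0.001 to 0.1 for HET and WT, and from -0.05 to 0.077 for KO and HET. Differently numbered libraries were not compared, so these values do not tell whether same-numbered ones shared a batch. Levels near 0.1 FPKM, as for Csrp3 in KO1, limit what FPKM can resolve.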

Other observations

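Some ratios among muscle genes lay outside the WT range in most KO libraries. Of 11 ratios of FPKM values, chosen after the values had been seen and given with no test, 5 put at least 5 of 6 KO libraries outside the WT range on 1 side, counted on values to 4 significant digits. The share among other pairs of genes was not counted, so nothing is read from that count. Actc1 over Tnnt1 was between 1.21 and 1.63 in KO, 1.79 and 1.92 in HET and 1.64 and 1.96 in WT libraries, so all 6 KO libraries were below the lowest WT library. Csrp3 over Actn2 had a median of 0.114 in KO, 0.178 in HET and 0.174 in WT libraries, and 4 of 6 KO libraries were below the lowest WT library, with KO6 equal to it at 0.127.

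Genes of giant sarcomere proteins were high relative to Actn2 in KO libraries. Actn2 was itself chosen for lower RNA in KO heads, so any gene that fell less is high relative to it by that choice. Neb over Actn2, where Neb encodes the thin filament protein nebulin, had a median of 0.336 in KO, 0.196 in HET and 0.176 in WT libraries, and 5 of 6 KO libraries exceeded the highest WT library. Ttn over Actn2 had a median of 0.0643 in KO, 0.0348 in HET and 0.0385 in WT libraries, again with 5 of 6 above. Ttn levels were low, and Ttn did not pass the filter. Relative to Actn2, the regulators were also high, with Myog over Actn2 at a median of 2.59 in KO and 2.06 in WT libraries and Myod1 over Actn2 at 1.30 in KO and 0.854 in WT libraries, each with 5 of 6 KO libraries above the highest WT library. KO5, whose Actn2 level lay within the WT range, was among those above the WT range for both Ttn and Neb.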
